A study of Mus musculus with 14 samples.

Results

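The 36 genes described here are Myc and 35 genes whose products build ribosomes, in natural killer cells (NK cells) and in their relatives, the innate lymphoid cells of type 1 (ILC1s), of mouse bone marrow. They were chosen by their gene symbols and make up 36 of the 46078 gene rows of the count table. MYC is a transcription factor that binds E-box sites in DNA and raises the expression of genes for growth, among them those of ribosome production. Ribosomes are made in the nucleolus, where RNA polymerase I transcribes the precursor of ribosomal RNA, small nucleolar ribonucleoproteins (snoRNPs) modify it, and assembly factors cut it and load it with ribosomal proteins. Lymphocytes raise this programme when cytokines or antigen make them grow and divide, and IL-15 (interleukin 15) is a cytokine on which NK cells and ILC1s depend.

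The data were bulk RNA-seq libraries, each from 2000 cells sorted from the bone marrow of C57BL/6 mice aged 8 weeks. Immature NK cells (iNK) were gated on NK1.1, DX5 and CD27 and without CD3, CD11b and IL-7Ra, and immature ILC1s (iILC1) on NK1.1, CD49a and IL-7Ra and without CD3. Mice with the genotype Vav-Cre; Il-15-flox/KO, called cKO here, were compared with control mice of the genotype Il-15-flox/KO, so that both genotypes carried a knockout allele of Il15 beside the floxed one. The Vav promoter drives Cre in the blood lineages, so that other cells of the marrow keep their floxed allele. The groups were cKO iNK (n = 4), control iNK (n = 3), cKO iILC1 (n = 4) and control iILC1 (n = 3). Whether the libraries of a group are from different mice is not said in the labels, and the p-values speak only for the spread between the libraries at hand, which may be technical.

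Total counts were 3512796 to 12572326 per library, and lowest in control iILC1, where they reached 4933284. Levels are given as TMM-scaled CPM, as mean ± SD or for each library in the order of the replicate numbers. Il15 itself was counted at 10.6 ± 1.55 CPM in cKO iNK and 9.85 ± 1.52 CPM in control iNK, and at 18.0 ± 5.62 CPM in cKO iILC1 and 12.9 ± 1.07 CPM in control iILC1; counts over the whole gene, next to a knockout allele in every mouse, check neither the deletion nor the labels. Markers were checked against the sort labels. Eomes, the NK cell transcription factor, had 94.3 CPM in cKO iILC1 and 804 CPM in cKO iNK, and 132 CPM in control iILC1 and 732 CPM in control iNK. All 5 ILC1 markers were called higher in iILC1 in either genotype. Of the 8 NK markers, several of which both cell types carry, 2 were called lower and 1 higher in iILC1 in cKO (median log2 fold change -0.013), and 2 lower and none higher in control (median -0.35). On the first principal component, which held 28.6% of the variance, replicate 1 of cKO iILC1 stood at -74.3 and replicate 1 of control iNK at -98.97, with the other libraries at -53.97 to 80.45. Replicate 1 of cKO iILC1 was also the lowest on the second, at -86.99 against -39.91 to 47.62. Replicate 1 of cKO iILC1 and replicate 1 of control iNK are the 2 libraries referred to as apart in the alternative that leaves out both. Replicate 2 of control iILC1 stood at the other end of the first component, at 80.45, with the next library at 57.96. That alternative keeps it.

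The members fall into groups by role. Myc is the transcription factor. Ncl (nucleolin) and Npm1 (nucleophosmin) are abundant nucleolar proteins with many tasks. Fbl, Nop56 and Nop58 form the core of box C/D snoRNPs, which guide methylation of ribosomal RNA, and Dkc1, Nhp2, Gar1 and Nop10 form the core of box H/ACA snoRNPs, which guide its pseudouridylation. Polr1a, Polr1b and Polr1c encode subunits of RNA polymerase I. Nolc1, Mybbp1a, Ddx21, Wdr43, Heatr1, Rrp9 and Nop14 act in early nucleolar steps, Bysl, Rrp12, Tsr1, Ltv1 and Nob1 in maturation of the small subunit, and Nop2, Nop16, Rrs1, Rrp1b, Ppan, Gnl3, Ftsj3 and Noc2l mainly in assembly of the large subunit. Bop1, Pes1 and Wdr12 form the PeBoW complex of the large subunit pathway. Many of these roles were worked out in budding yeast and in human cells.

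Promoters are shown because the E-box CACGTG is the site that MYC binds with its partner MAX. RefSeq promoter windows of build GRCm38.p6, the assembly also called mm10, were matched for 30 of the 36 genes and run from 250 bases before to 50 bases after the gene's start. CACGTG, which reads the same on both strands, occurred in 6 of these 30 genes (20%), against 8.09% of the 27025 genes with a window. The 6 sites are printed on the strand of the gene with the E-box in capitals, from the most upstream to the most downstream relative to the start.
Nop2: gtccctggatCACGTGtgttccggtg
Pes1: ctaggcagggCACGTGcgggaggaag
Wdr43: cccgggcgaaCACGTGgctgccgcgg
Tsr1: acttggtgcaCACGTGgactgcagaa
Ltv1: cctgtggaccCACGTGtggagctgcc
Mybbp1a: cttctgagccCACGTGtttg
These windows lie at chr6:125131813-125131838 for Nop2 and chr11:3963967-3963992 for Pes1, at chr17:71616222-71616247 for Wdr43 and chr11:74898094-74898119 for Tsr1, all on the plus strand. That of Ltv1 lies on the minus strand at chr10:13193094-13193119, and that of Mybbp1a, which ends with its promoter window, on the plus strand at chr11:72441357-72441376. The first base of the E-box stands 60 bases before the start in Nop2 and at positions 3 to 41, counted with the start as 1, in the other 5 genes. The variant CACGCG, on either strand, occurred in 11 of the 30 genes (36.7%) and in 10.5% of all genes; its letters cannot overlap a CACGTG. The windows of the 30 genes were also richer in G and C, with a median of 58.8% against 52.7% over all genes, and the part of base composition in these shares was not tested. Of the 7 genes that passed the test between the cell types, described next, 6 have a window and 1 of those, Nop2, holds CACGTG. The 100 bases before the start of Nop2 and, with no CACGTG, those before the start of Dkc1 read as follows.
Nop2, chr6:125131783-125131882, plus strand: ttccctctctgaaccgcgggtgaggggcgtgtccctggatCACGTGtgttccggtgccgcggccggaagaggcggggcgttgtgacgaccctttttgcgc
Dkc1, chrX:75095754-75095853, plus strand: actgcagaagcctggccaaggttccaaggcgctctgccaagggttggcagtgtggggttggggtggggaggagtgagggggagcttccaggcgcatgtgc
A match of letters is a description of these windows and shows no binding.

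Between the cell types of control mice, 7 of the 36 genes fell in iILC1 and none rose. They were Npm1 and Ncl, the box H/ACA components Dkc1, Nhp2 and Gar1, the snoRNP chaperone Nolc1, and Nop2, a methyltransferase of the large subunit's RNA. Their levels in control iILC1 were 0.428 to 0.537 times those in control iNK. The test was edgeR's quasi-likelihood F test over all 14 libraries, two-sided, with Benjamini-Hochberg adjustment over the 26990 genes tested and a threshold of 0.05. It called 3.91% of all genes in this comparison in either direction and 3.00% lower in iILC1, beside the 7 of 36 members. Among the 14569 genes with a mean of at least 5 CPM, it called 785 lower and 199 higher in iILC1. Of the 1056 genes called, 246 were higher in iILC1; with library totals as the only scaling 537 of 1046 were higher, and 6 of the 36 members were still called lower. In bulk samples, fewer cells of a type and less RNA per cell cannot be told apart.

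Npm1, on chr11:33152287-33163206, had 233, 186 and 256 CPM in the control iILC1 libraries and 468, 442 and 505 CPM in those of control iNK. The groups were far apart, with a log2 fold change of -1.07 (SE 0.241, edgeR adjusted p = 0.00894). Ncl, on chr1:86344719-86359400, had 415, 318 and 413 CPM in control iILC1 and 689, 811 and 657 CPM in control iNK. This gene had the highest counts of the 36, and its log2 fold change was -0.91 (SE 0.25, adjusted p = 0.0351 by edgeR).

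Of the 4 genes of the box H/ACA core, 3 were called, and the median log2 fold change of the 4 was -1.04. Dkc1 (chrX:75095854-75109777), the pseudouridine synthase of the particle, had 113, 89.4 and 125 CPM in control iILC1, against 203, 209 and 214 CPM in control iNK. Its values in iNK were close together, and its log2 fold change was -0.93 (SE 0.222, edgeR adjusted p = 0.0136). Nhp2 (chr11:51619735-51623714) had 33.3, 19.7 and 30.4 CPM in control iILC1 and 66.5, 55.8 and 61.1 CPM in control iNK, a log2 fold change of -1.14 (SE 0.275, edgeR adjusted p = 0.0152). Gar1 (chr3:129824912-129831396), the member with the lowest counts, had 11.1, 5.96 and 9.71 CPM in control iILC1 and 22.3, 19.0 and 20.8 CPM in control iNK. Its estimate of -1.22 was the most negative of the 36 and had the largest error (SE 0.35, edgeR adjusted p = 0.0443). Nop10, the smallest protein of the particle, had 51.5, 32.4 and 30.8 CPM in control iILC1 and 89.3, 56.5 and 70.9 CPM in control iNK. Its libraries did not overlap either, but it missed the threshold (log2 fold change -0.93, SE 0.313, edgeR adjusted p = 0.0916).

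Nolc1 (chr19:46075863-46085528) had 73.7, 54.9 and 72.0 CPM in control iILC1 and 122, 141 and 109.6 CPM in control iNK. Its groups did not overlap, and the log2 fold change was -0.90 (SE 0.247, edgeR adjusted p = 0.036). Nop2 (chr6:125131883-125144753) had 58.5, 38.8 and 58.6 CPM in control iILC1 and 99.3, 97.4 and 95.5 CPM in control iNK. Its groups did not overlap, and the log2 fold change was -0.91 (SE 0.247, edgeR adjusted p = 0.0343). For each of the 7 genes every control iILC1 library was below every control iNK library, and replicate 2 of control iILC1 was the lowest library.

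Myc itself, on chr15:61985341-61990374, had 107, 76.5 and 108 CPM in control iILC1 and 178, 204 and 137 CPM in control iNK. The groups did not overlap, and the estimate was similar in size to those of the called genes, but it missed the threshold (log2 fold change -0.83, SE 0.27, edgeR adjusted p = 0.0781).

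**Figure D1:**
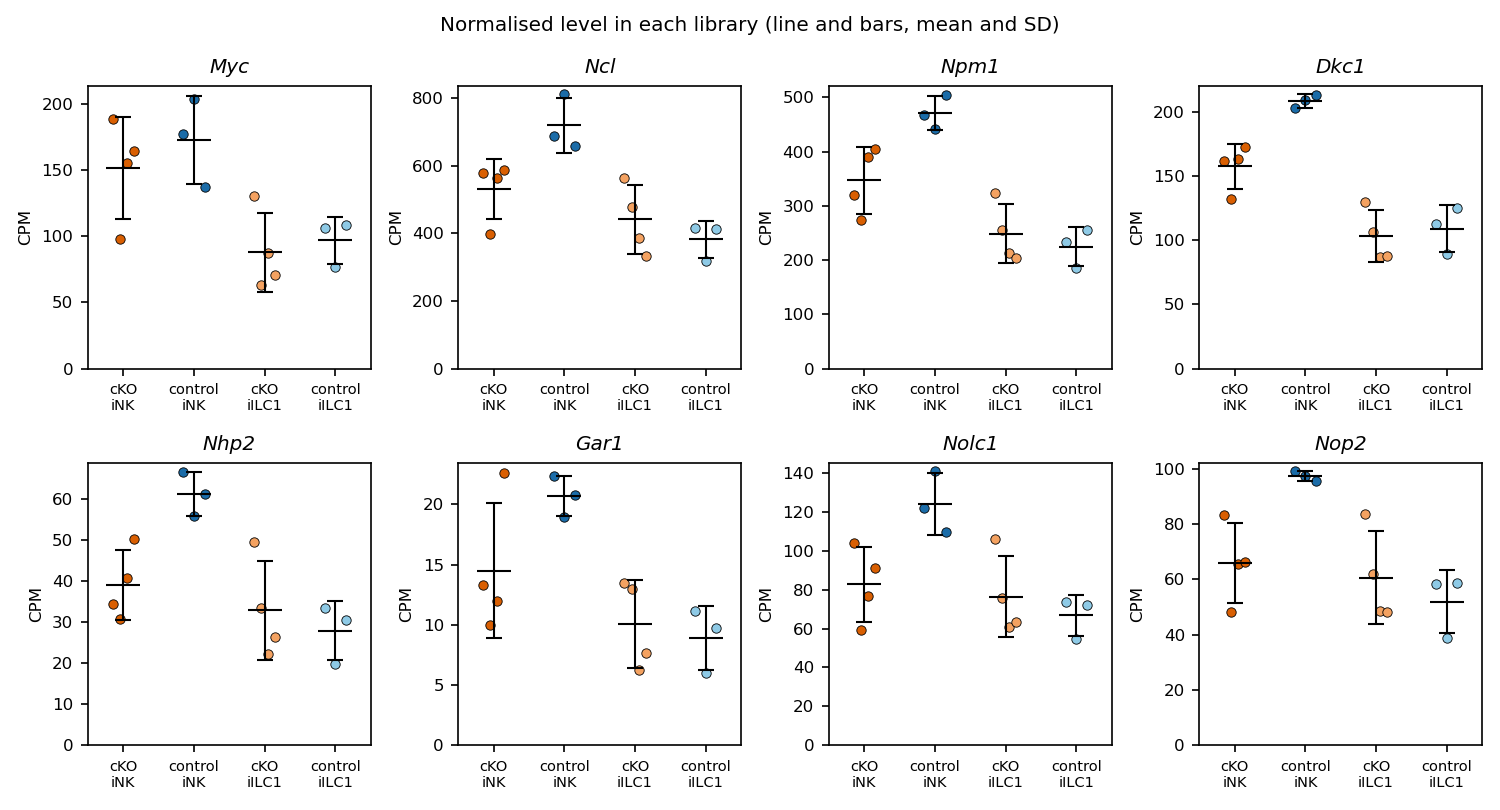
CPM in each library (points) with the mean and SD (line and bars) for Myc and the 7 genes called between control iILC1 and control iNK, with the groups on the x axis. In all 8 panels every control iILC1 point lies below every control iNK point, and the cKO iNK points of Npm1 lie between those of both control groups.

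The estimate was below 0 in all 36 genes, but in 30 with library totals as the only scaling, in 34 when testing was limited to genes averaging 5 CPM or more, in 32 with the background covariate described next and in 34 to 36 without single libraries. The median log2 fold change was -0.65, against 0.16 over all genes tested and -0.16 over the 14569 genes with a mean of at least 5 CPM. The libraries of control iILC1 were all below those of control iNK for 25 of the 36 genes; the same held for 13.0% of all genes tested and for 22.2% of the genes with a mean of at least 5 CPM. The size of the estimate differed between roles. The box C/D genes Fbl, Nop56 and Nop58 had estimates of -0.75, -0.78 and -0.52, and the PeBoW genes ranged from -0.72 to -0.56. The 8 large subunit genes had a median of -0.64 with 1 called, the 7 early nucleolar genes a median of -0.45 with 1 called, and the 5 small subunit genes a median of -0.53 with none called. Polr1a, which encodes the largest subunit of RNA polymerase I, had 85.4, 87.1 and 70.9 CPM in control iILC1 and 89.96, 106 and 74.2 CPM in control iNK, with overlapping groups and an estimate of -0.15 (SE 0.233, edgeR adjusted p = 0.723). Rrp12, a factor of small subunit export, was the nearest to 0 at -0.073 (SE 0.234, edgeR adjusted p = 0.872).

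The count of called members depended on the libraries of this small comparison. It was 0 without replicate 2 of control iILC1, 2 (Npm1 and Dkc1) without replicate 1 of control iNK or replicate 3 of control iILC1, and 3 without replicate 2 of control iNK. It was 16 without replicate 1 of cKO iILC1, which enters only through the shared spread and scaling, and 6 without both libraries that lay apart. Npm1 and Dkc1 were called in 22 of 23 alternatives each, and Myc in 7 of 23. Receptor genes for odours and pheromones, 1319 in number and expected to be silent in lymphocytes, gave the summed background of each library: 2128, 2990 and 2838 CPM in control iILC1 and 1359, 1569 and 2437 CPM in control iNK. With that sum as a covariate 3 members were called (Ncl, Npm1 and Dkc1) and the median was -0.37; its part in the result was not tested beyond this fit. The 16 B lineage markers summed to 213 to 298 CPM in control iILC1 and 92.1 to 106 CPM in control iNK, with 2 of 16 called higher, and the 8 T cell markers to 130.4 to 259 CPM in control iILC1 and 57.6 to 76.3 CPM in control iNK, with 4 of 7 tested called higher. The 12 myeloid markers summed to 81.7 to 98.9 CPM in control iILC1 and 135 to 401 CPM in control iNK, with a median log2 fold change of -2.35; 1 was called lower, S100a8 at -5.63, and 1 higher, Csf1r at 1.10. None of these markers was at 0 in all libraries of a group, and the part of such cells in the result was not tested.

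Between the cell types of cKO mice the median estimate of the 36 genes was nearer to 0 than in control mice. No member was called by edgeR, where 3.42% of all genes were, and 4 had an unadjusted p under 0.05; DESeq2 called 2, Myc and Dkc1. Estimates were below 0 for 33 of 36 genes (28 to 34 under the alternatives), with a median log2 fold change of -0.23. The median was -0.36 without both libraries apart, -0.15 with the background covariate and also -0.15 without replicate 4 of cKO iILC1 or replicate 1 of cKO iNK. Myc had 131, 63.6, 87.3 and 70.6 CPM in cKO iILC1 and 189, 97.9, 155 and 165 CPM in cKO iNK. Replicate 1 of cKO iILC1 lay above replicate 2 of cKO iNK, so that the groups overlapped, and the log2 fold change was -0.78 (SE 0.233, edgeR adjusted p = 0.0604). Myc passed the threshold in 12 of 23 alternatives, among them the fit without both libraries that lay apart. Dkc1 had 130.2, 107, 87.2 and 88.1 CPM in cKO iILC1 and 162, 132, 164 and 173 CPM in cKO iNK. It was the only gene of the 36 lower in cKO iILC1 without overlap, against 3.08% of all genes lower without overlap, and it also missed the threshold (log2 fold change -0.61, SE 0.19, edgeR adjusted p = 0.0807; called in 9 of 23 alternatives).

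The next members by p were Gnl3, a nucleolar GTP-binding protein, Npm1, Nop56, Bysl and Fbl. Their log2 fold changes were -0.48 for Gnl3 (edgeR adjusted p = 0.356), -0.48 for Npm1 (0.365), -0.43 for Nop56 (0.524), 0.43 for Bysl (0.536) and -0.40 for Fbl (0.581). Bysl, the mouse gene of bystin, was the largest of the 3 positive estimates, with 47.5, 45.3, 33.9 and 28.6 CPM in cKO iILC1 and 40.1, 24.1, 24.8 and 26.4 CPM in cKO iNK. The other two were Rrp12 at 0.11 and Nop16 at 0.081. The difference of the cell type effect between genotypes is the interaction given further on.

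**Figure D2:**
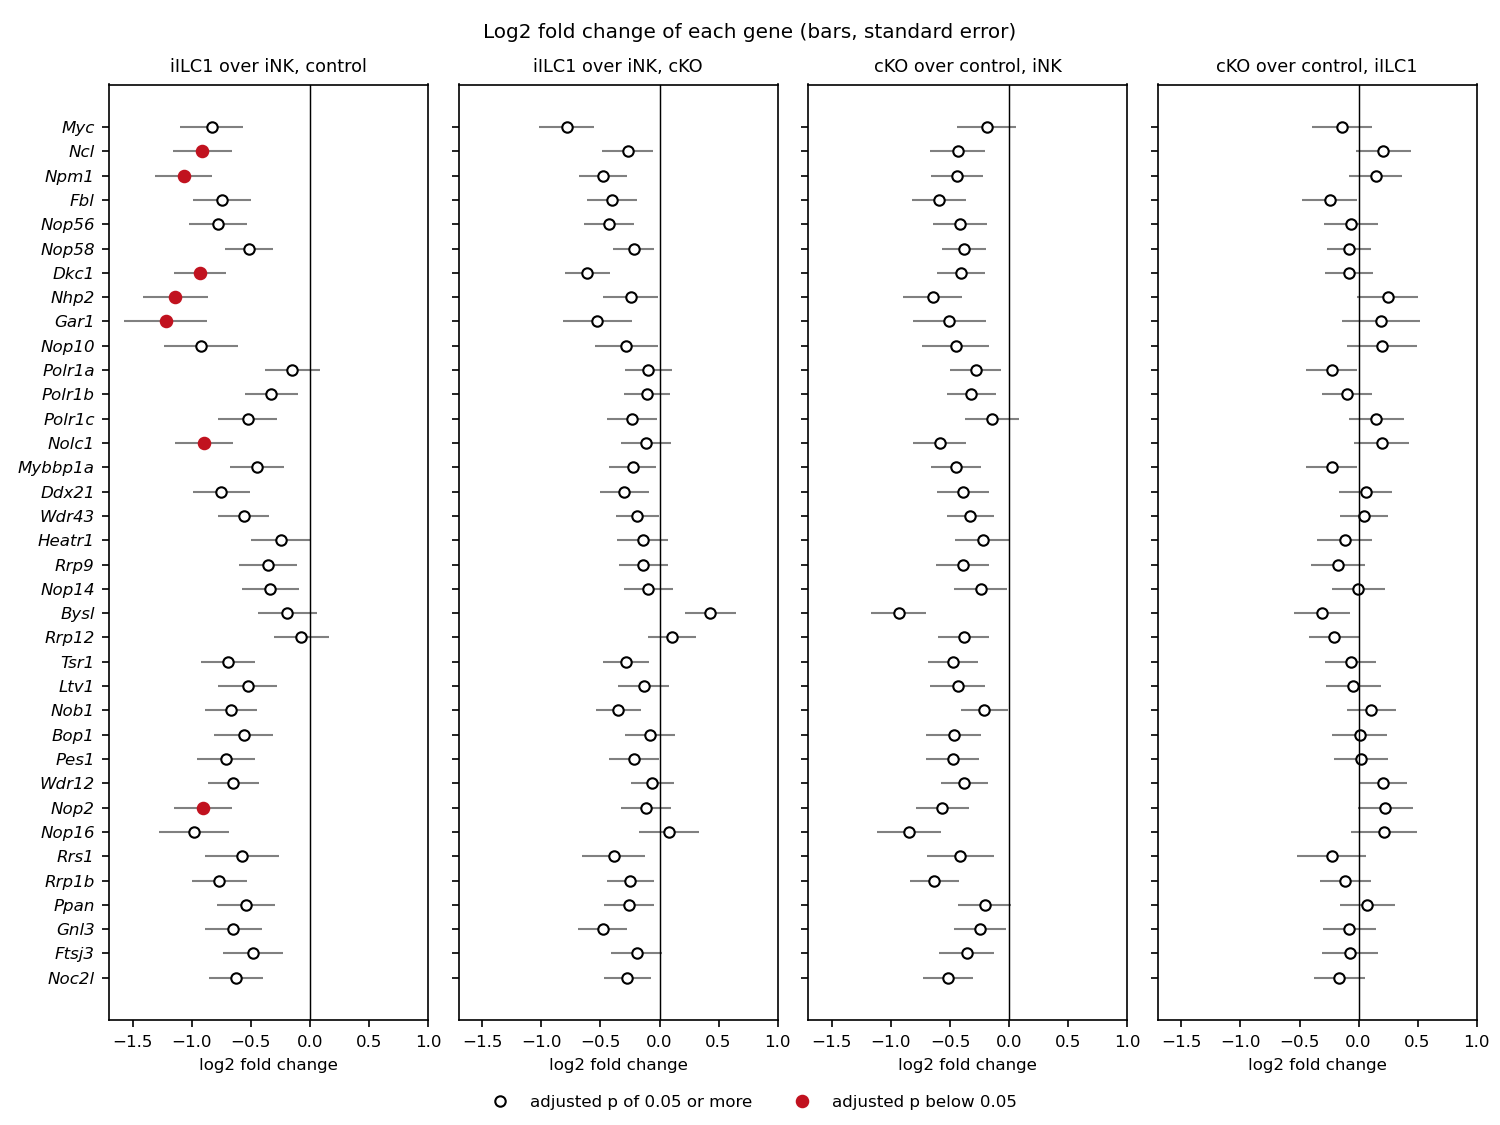
Log2 fold change of each of the 36 genes (points) with its SE (bars) in the 4 comparisons, filled in red where the edgeR adjusted p was below 0.05. Red points occur only in the panel of iILC1 over iNK in control mice, and the points of cKO over control in iILC1 lie on both sides of 0.

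In iNK, cKO libraries had less of the 36 genes together than control libraries, although no member passed the test. The summed level of the 36 was 3991, 2746, 3583 and 3885 CPM in cKO iNK and 4794, 5014 and 4381 CPM in control iNK. Every cKO library lay below every control library, and the difference of the means was -24.9%. The estimate was below 0 in 36 of 36 genes (35 with library totals as the only scaling, where the median was -0.24), with a median log2 fold change of -0.41 against 0.056 over all genes tested and -0.035 over those with a mean of at least 5 CPM. No member was called by edgeR, where 0.408% of all genes were; 11 members had an unadjusted p under 0.05, and DESeq2 called 1, Bysl. Groups that did not overlap and were lower in cKO numbered 16 of 36, against 4.75% of all genes tested and 7.43% of the genes with a mean of at least 5 CPM.

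Bysl, which acts in small subunit maturation, had 40.1, 24.1, 24.8 and 26.4 CPM in cKO iNK and 54.7, 56.5 and 53.9 CPM in control iNK. Its log2 fold change was -0.93 (SE 0.233, edgeR adjusted p = 0.0757), and it was called in 8 of 23 alternatives, among them the fit without replicate 1 of cKO iNK, the highest of its group. Its exons share 9.4% of their bases with Ccnd3, and the kits did not mark the strand, so reads of both genes cannot be told apart there. Nop16 had 28.5, 15.4, 20.8 and 28.7 CPM in cKO iNK and 43.3, 42.1 and 40.9 CPM in control iNK. Its groups did not overlap, and the log2 fold change was -0.85 (SE 0.27, edgeR adjusted p = 0.269). Rrp1b, a nucleolar protein of the large subunit pathway, had 60.0, 39.2, 48.6 and 45.8 CPM in cKO iNK and 73.7, 80.7 and 70.5 CPM in control iNK. Its groups did not overlap, and the log2 fold change was -0.63 (SE 0.209, edgeR adjusted p = 0.307).

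Fbl, the methyltransferase of box C/D snoRNPs, averaged 54.6 CPM in cKO iNK and 82.5 CPM in control iNK, an estimate of -0.59. The estimates of Nhp2 and Nolc1 were -0.65 and -0.59. None of these 5 genes after Bysl had an edgeR adjusted p below 0.269, and all 5 had groups without overlap. These genes were named for their small p in this comparison. Myc, named in every comparison, had 189, 97.9, 155 and 165 CPM in cKO iNK and 178, 204 and 137 CPM in control iNK. Its highest cKO library exceeded 2 of the 3 control libraries, and its estimate was -0.19 (SE 0.249, edgeR adjusted p = 0.896). The 3 RNA polymerase I genes also had overlapping groups, with estimates of -0.32 to -0.14.

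Libraries within cKO iNK were unequal. Replicate 2 was the lowest of its group for 34 of the 36 genes and had the highest receptor background, at 2548 CPM against 1687 to 2325 CPM in the other replicates of cKO iNK. Without it the median of the members was -0.31, and 36 of 36 estimates stayed below 0. Markers of other cells and cell cycle genes moved with this comparison. The 16 B lineage markers summed to 449 to 638 CPM in cKO iNK and 92.1 to 106 CPM in control iNK, with 10 of 16 called higher, and the 12 erythroid markers to 289 to 905 CPM in cKO iNK and 364 to 431 CPM in control iNK, with 2 of 12 called higher. The 30 cell cycle genes summed to 2020 to 2653 CPM in cKO iNK and 3634 to 5281 CPM in control iNK. No marker of either lineage was at 0 in all libraries of a group, and the part of these cells or of cycling in the values of the 36 genes was not tested.

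**Figure D3:**
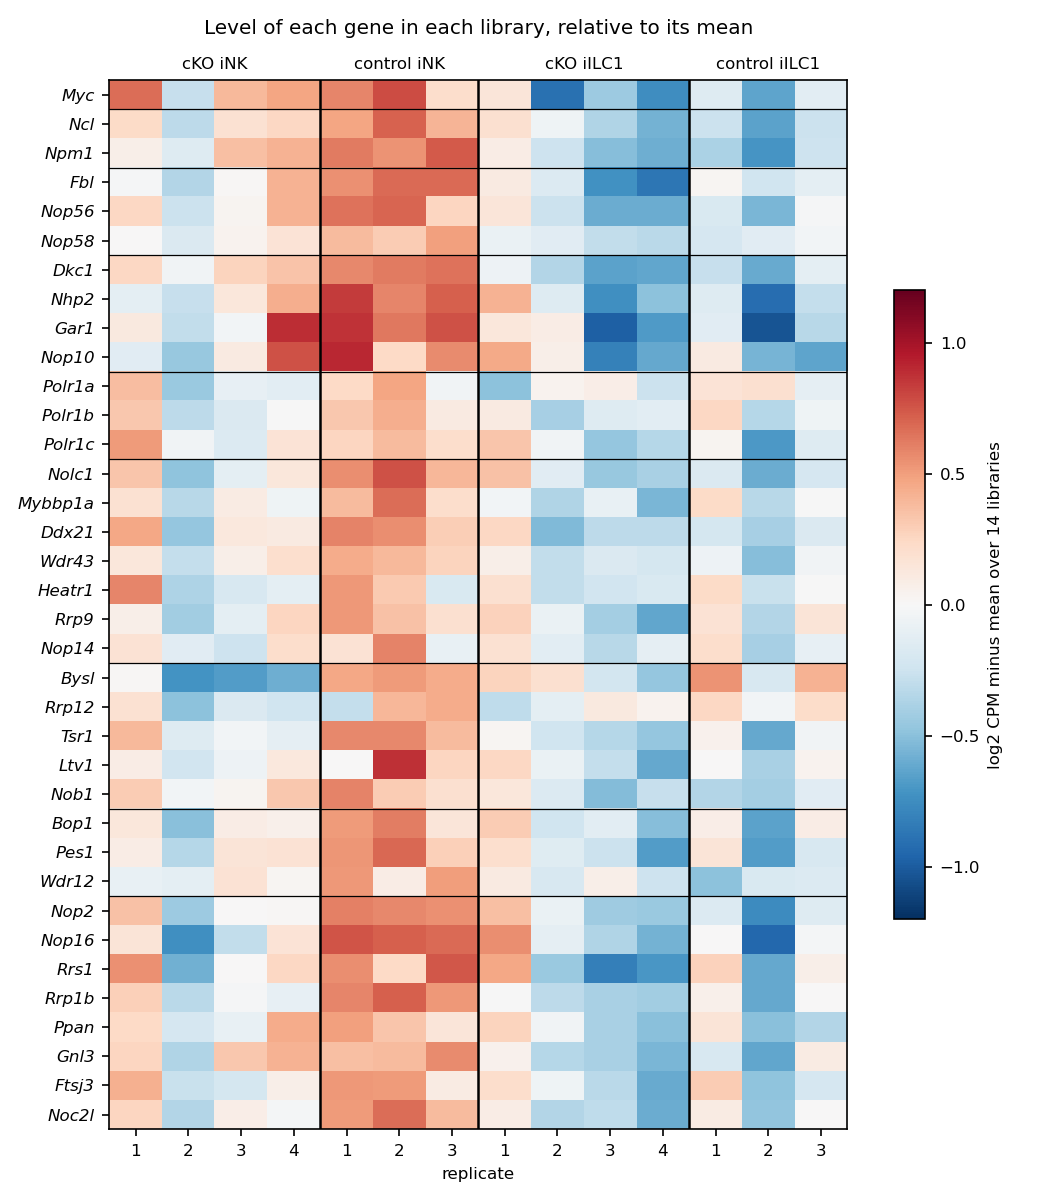
Each row is a gene and each column a library, coloured by log2 CPM minus the gene's mean over the 14 libraries, with genes grouped by role as in the text. The mean of control iNK is the highest of the 4 groups for all 36 genes, although single libraries of other groups exceed it, replicate 2 of cKO iNK is the lowest of its group for 34 of 36 genes, and replicate 1 of cKO iILC1 is redder than the other cKO iILC1 libraries for most genes.

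In iILC1 no difference between the genotypes was detectable in these genes. The summed level was 3719, 2914, 2654 and 2423 CPM in cKO iILC1 and 3257, 2401 and 3134 CPM in control iILC1, with overlapping groups and a difference of the means of -0.108%. No member was called by edgeR or DESeq2 and none had an unadjusted p under 0.05; edgeR called 0.0482% of all genes here. Estimates were below 0 for 20 of 36 genes, with a median of -0.053 and a range of -0.31 to 0.25. No member had cKO libraries all below the control libraries, against 2.82% of all genes.

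The extremes were Bysl, with 47.5, 45.3, 33.9 and 28.6 CPM in cKO iILC1 and 57.3, 34.6 and 52.9 CPM in control iILC1 (log2 fold change -0.31, SE 0.235), and Nhp2, with 49.5, 33.3, 22.3 and 26.3 CPM in cKO iILC1 and 33.3, 19.7 and 30.4 CPM in control iILC1 (log2 fold change 0.25, SE 0.258). Both had an edgeR adjusted p of 0.979. Myc had 131, 63.6, 87.3 and 70.6 CPM in cKO iILC1 and 107, 76.5 and 108 CPM in control iILC1, an estimate of -0.14 (SE 0.252, edgeR adjusted p = 0.982). Fbl, Mybbp1a, Polr1a, Wdr12 and Nop2 had estimates of -0.25, -0.23, -0.23, 0.21 and 0.23. The standard errors of 0.188 to 0.332 over the 36 genes set what could be seen in these groups. Replicate 1 of cKO iILC1 was the highest of its group for 34 of 36 genes, and without it the median was -0.13 with 32 of 36 estimates below 0. Without replicate 2 of control iILC1 the median was -0.17 with 28 below 0, and without replicate 1 or 3 of control iILC1 it was 0.077 with 13 below 0 or 0.035 with 15 below 0. Without replicate 3 or 4 of cKO iILC1 it was 0.0076 or 0.0046 with 18 below 0, so that single libraries turned its sign. No member was called under any alternative. Among markers of other cells, 2 of 16 B lineage markers were called higher in cKO iILC1 and 1 of 7 tested T cell markers lower. The part of such cells in the values of the 36 genes was not tested.

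The interaction, the genotype effect in iILC1 minus that in iNK, tests whether the effects differed between the cell types. Its estimate was above 0 for 36 of 36 genes, with a median of 0.35, against -0.032 over all genes tested. Over the 14569 genes with a mean of at least 5 CPM the median was 0.15, with 38.0% of estimates below 0. For the 36 genes the median was 0.19 with the background covariate (7 below 0) and 0.22 without both libraries apart (4 below 0). It was 0.18 when testing was limited to genes averaging 5 CPM or more (3 below 0). It was 0.21 without replicate 1 of cKO iILC1 (4 below 0) and 0.22 without replicate 2 of cKO iNK (5 below 0). No member was called by edgeR or DESeq2, 5 had an unadjusted p under 0.05, and edgeR called 0.0778% of all genes. The estimates with the smallest p were 1.06 for Nop16 (SE 0.391), 0.90 for Nhp2 (SE 0.359), 0.79 for Nop2 (SE 0.324), 0.78 for Nolc1 (SE 0.323), 0.59 for Wdr12 (SE 0.282) and 0.64 for Ncl (SE 0.328), with edgeR adjusted p-values of 0.705 to 0.708. Myc was at 0.049 (SE 0.355, edgeR adjusted p = 0.977), and its sign turned with the scaling and with single libraries left out. With library totals as the only scaling, which shifted the median of all genes to -0.31 from -0.032, the median of the 36 was 0.054 and 14 of 36 estimates were below 0; the distance between both medians was 0.36 in place of 0.39. The comparisons share their groups: control iNK had the highest mean of the 4 groups for 36 of 36 genes, and that group enters the genotype comparison in iNK, the cell type comparison in control mice and the interaction. All 16 B lineage markers had an interaction estimate below 0, and 7 of them were called. The part of such cells in the estimates of the 36 genes was not tested.

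Levels per kb were divided by all annotated exon bases of a gene, 11955 for Wdr12, 10188 for Ncl and 2665 for Npm1. Annotated bases need not be the length of the transcripts present, so ranks between genes depend on the annotation. On this scale Npm1 had the highest level in every group, at 130.2 CPM per kb in cKO iNK, 177 in control iNK, 93.5 in cKO iILC1 and 84.4 in control iILC1. Wdr12 had the lowest, at 4.18 CPM per kb in cKO iNK, 5.44 in control iNK, 4.01 in cKO iILC1 and 3.45 in control iILC1. Myc ranked 2 in cKO iNK at 54.8 CPM per kb, 8 in control iNK at 62.5, 9 in cKO iILC1 at 31.8 and 7 in control iILC1 at 35.1. Neighbours in this order seldom differed beyond their spread: of 35 neighbouring pairs, 2 had libraries without overlap in cKO iNK, 5 in control iNK, 3 in cKO iILC1 and 2 in control iILC1. The median coefficient of variation of the 36 genes between libraries was 19.7% in cKO iNK, 11.4% in control iNK, 23.6% in cKO iILC1 and 19.8% in control iILC1.

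**Figure D4:**
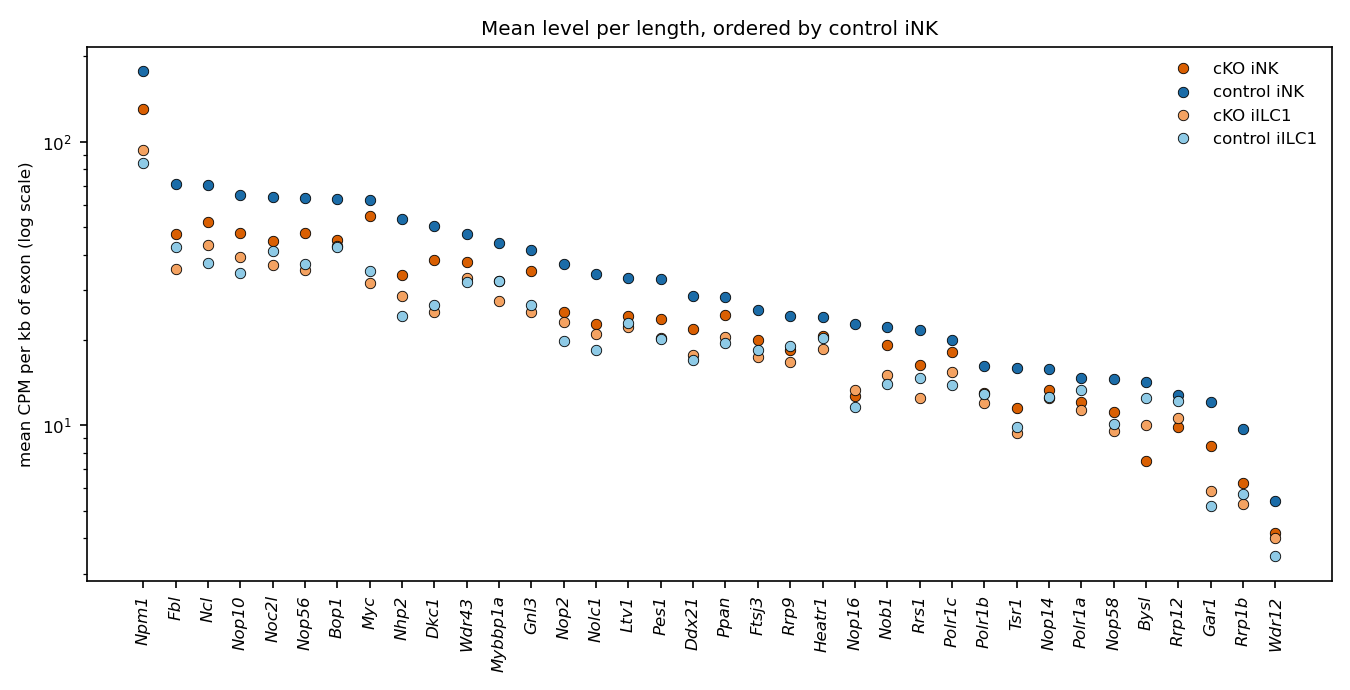
Mean CPM per kb of exon (log scale) of each gene in the 4 groups, with the genes ordered from left to right by control iNK. The control iNK point is the highest for every gene, Npm1 is first in all groups and Wdr12 last.

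Some of these counts are uncertain. Tsr1 shares 32.3% of its exon bases with Srr and Noc2l 20.9% with Samd11, and Ncl, Nop56, Nop58 and Ppan host small nucleolar RNA genes in the annotation. How reads that map to several places were counted is not given in the sources used here. Npm1 has 8 pseudogenes with at least 90% identity over at least 200 bases, and the 6 of them in the table summed to 4.48% of its own level. For Fbl the 2 such copies summed to 20% of its level, and for the 7 called genes the share was at most 5.41%, in Gar1.

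Genes around the members were described by lists. Of 77 other ribosome biogenesis genes, edgeR called 1 in any comparison, and DESeq2 called 7 between the cell types in control mice and 1 by genotype in iNK. The edgeR call was Rpf2, which in yeast works with Rrs1 in loading the 5S particle onto the large subunit and here fell to 26.5 CPM in control iILC1, against 52.2 CPM in control iNK (log2 fold change -0.98, SE 0.252, edgeR adjusted p = 0.0239). Their median log2 fold changes were -0.46 between the cell types in control mice, -0.12 in cKO mice, -0.24 for genotype in iNK and 0.082 for genotype in iILC1. None of 21 further subunits and factors of RNA polymerases I and III was called in any comparison by edgeR or DESeq2 (at most 5 had an unadjusted p under 0.05 in edgeR), at medians of -0.40 between the cell types in control mice, -0.087 in cKO mice, -0.15 for genotype in iNK and 0.19 for genotype in iILC1. None of 14 p53 target genes, which are induced when ribosome assembly fails, was called by edgeR in any of them, where at most 3 had an unadjusted p under 0.05; DESeq2 called 1 between the cell types in control mice.

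Of 12 tested genes of the Myc network, the antagonist Mxd1 fell in iILC1 in both genotypes, with 121 CPM in cKO iILC1 and 219 CPM in cKO iNK, and 119.8 CPM in control iILC1 and 227 CPM in control iNK. The log2 fold changes were -0.86 in cKO (SE 0.231, edgeR adjusted p = 0.0298) and -0.92 in control (SE 0.268, edgeR adjusted p = 0.0479, with groups that overlapped). Mxd3, another MAX partner, fell to 3.37 ± 3.70 CPM in control iILC1, against 15.9 ± 4.4 CPM in control iNK (log2 fold change -2.15, SE 0.588, edgeR adjusted p = 0.0354). Its level in control iILC1 was low and its SD there exceeded the mean.

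Of 29 MYC targets of growth and metabolism, 12 fell and none rose in control iILC1 against control iNK by edgeR, and DESeq2 called 20. The edgeR calls included Shmt2, of mitochondrial one-carbon metabolism (92.7 CPM in control iILC1 and 184 CPM in control iNK, log2 fold change -0.99), and Srm, which makes spermidine (45.9 CPM in control iILC1 and 91.3 CPM in control iNK, log2 fold change -0.99). In cKO iILC1 against cKO iNK 2 fell, the transferrin receptor Tfrc at -1.16 and the pseudouridine synthase Pus7 at -0.68, and 1 rose, Odc1, the first enzyme of polyamine synthesis, with 172 CPM in cKO iILC1 and 77.2 CPM in cKO iNK (log2 fold change 1.15, SE 0.197, edgeR adjusted p = 0.000256). By genotype in iNK edgeR called 1, 17 of 29 had an unadjusted p under 0.05 and DESeq2 called 9. The edgeR call, Slc7a5, a subunit of the large neutral amino acid transporter, had 23.3 CPM in cKO iNK and 66.9 CPM in control iNK (log2 fold change -1.52, SE 0.242, edgeR adjusted p = 0.000815). By genotype in iILC1 edgeR called none of them, 3 had an unadjusted p under 0.05 and DESeq2 called 1.

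The IL-15 and STAT5 response list had 4 of 19 genes lower by genotype in iNK by edgeR (DESeq2 called 7), among them Cish, a feedback inhibitor induced by STAT5, with 6.86 CPM in cKO iNK and 19.8 CPM in control iNK, and 1 of 19 lower in iILC1, Gzmb. In iILC1 against iNK, 9 of 19 rose and none fell in cKO, and 3 rose and 1 fell in control. Of the 30 cell cycle genes, 6 fell by genotype in iNK by edgeR, where DESeq2 called 15, and none in iILC1 (there 5 had an unadjusted p under 0.05 and DESeq2 called 1), and 16 fell in iILC1 against iNK in cKO and 26 in control. Over libraries the summed cell cycle genes were 1174 to 1527 CPM in cKO iILC1, 1381 to 1918 CPM in control iILC1, 2020 to 2653 CPM in cKO iNK and 3634 to 5281 CPM in control iNK. The cell cycle sums thus moved with the cell type contrasts too, and their part in the values of the 36 genes was not tested.

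**Figure D5:**
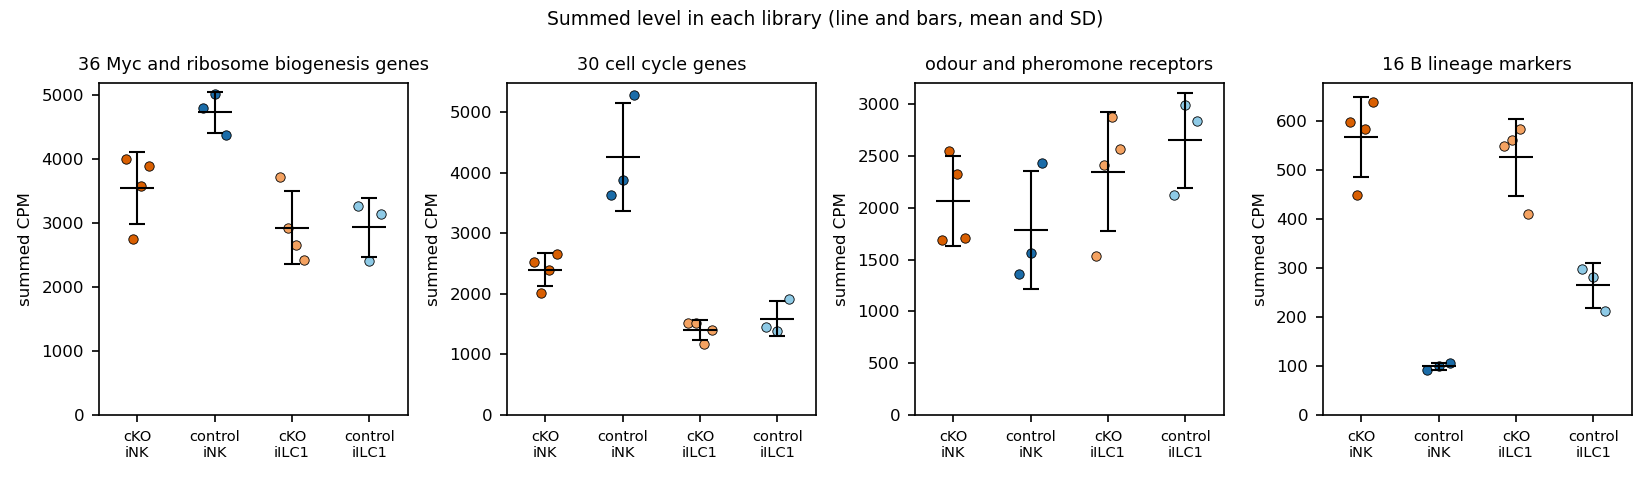
Summed CPM in each library (points) with the mean and SD (line and bars) of the 36 genes, 30 cell cycle genes, the odour and pheromone receptors and 16 B lineage markers, by group. The 36 genes and the cell cycle genes are highest in control iNK, the receptor sums of the groups overlap, and the B lineage sum of control iNK is below those of the other 3 groups.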

How the data were processed

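The deposited table held raw counts per gene for the 14 libraries, with no normalization, per the file headers. Per the submitters' processing notes the tools were Trimmomatic 0.33, HISAT2 2.1.0 and featureCounts of Subread 1.6.5, with build mm10; per the labels' protocols cDNA was made with SMART-Seq v4 and tagged with Nextera XT from 1 ng, kits that do not mark strand. Strand and multi-mapping settings are not given in the sources used here. Of 46078 identifiers 45143 matched a symbol.

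Genes were kept by filterByExpr (minimum count 10, minimum total 15), scaled by TMM and fitted in edgeR 4.0.16 (R 4.3.3) with 1 mean per group. SE came from the F statistic, residual degrees of freedom were 10 and the biological coefficient of variation 30%. The fit was tested on simulated data. Alternatives were DESeq2 1.42.0, other scalings and filters, only the groups compared, a background covariate, a replicate block and each library left out.

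The members, lists and alternatives were chosen with earlier results of these data known. Genes named were Myc, called members (at most 8) and, below 6, those of smallest p, plus up to 3 called genes of each list; others were described by range or chosen after their values were seen. Replicates differed by more than sampling noise (chi-square per degree of freedom 4.97 to 27.1). Copies were sought with BLAST among annotated pseudogenes.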

Additional observations from a re-analysis of the deposited data

Results flagged for a closer look

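Among 72 sets of 4 libraries (36 genes in cKO iNK and in cKO iILC1), 3 held a library whose distance from its nearest neighbour was too large a share of the range by Dixon's criterion, which flags about 1 in 20 sets by chance. All 3 were in cKO iNK. Ncl had 399 CPM in replicate 2, with 563 to 586 CPM in the other libraries. Bop1 had 80.8 CPM in replicate 2, with 119 to 126 CPM in the others. Bysl had 40.1 CPM in replicate 1, with 24.1 to 26.4 CPM in the others. Replicate 2 of cKO iNK had the highest receptor background of that group, at 2548 CPM, and its part in these values was not tested.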

How the results depend on the processing

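Members called between iILC1 and iNK in control mice (7) became 22 with DESeq2, 12 among genes with a mean of at least 5 CPM, 20 with a replicate block, 15 with only the groups compared and 3 with the background covariate, and 0 to 16 without single libraries. In cKO mice (0) they became 2 with DESeq2, 4 with library totals alone, 1 with no filter, 3 at 5 CPM, 2 with the replicate block, 2 with only the groups compared, 2 with the covariate, 2 without both libraries apart, and 0 to 2 without single libraries. For genotype in iNK (0) they became 1 with DESeq2, with no filter, at 5 CPM, with only the groups compared and with the covariate, and 0 to 1 without single libraries. The members' median between the cell types in control mice became -0.31 with library totals and -0.37 with the covariate, and that of the interaction 0.054 with library totals. The interaction of Myc turned to -0.26 with library totals, -0.13 at 5 CPM, -0.30 with the covariate and -0.23 without both libraries apart, and lay between -0.23 and 0.18 without single libraries, below 0 for 4 of them. All genes called between the cell types became, in control mice (1056), 2180 with DESeq2, 2212 with the replicate block, 1696 with only the groups compared and 394 to 2050 without single libraries, and in cKO mice (923) 1663 with the covariate. By genotype in iNK (110) they became 294 with DESeq2, 176 with library totals (106 of them higher, against 42 of 110), 191 with no filter, 246 at 5 CPM, 175 with the replicate block, 220 with only the groups compared, 376 with the covariate and 63 to 230 without single libraries. By genotype in iILC1 (13) they became 46 with DESeq2, 39 with library totals, 47 with no filter, 37 at 5 CPM, 30 with the replicate block, 54 with the covariate and 4 to 22 without single libraries. For the interaction (21) they became 37 with DESeq2, 56 with no filter, 40 with the replicate block, 35 with the covariate and 10 to 33 without single libraries. The causes were not tested. Library totals moved the median of all genes between the cell types in control mice to 0.49 from 0.16 and left the members 0.80 in place of 0.81 below it. Deviations of libraries with the same replicate number correlated at -0.0918 to 0.354, and those with different numbers at -0.44 to 0.32. With 3 or 4 libraries per group this cannot decide whether the numbers pair the samples, and the labels do not say. The block is therefore given only as an alternative. The groups of 3 or 4 libraries and the lower depth of control iILC1 limit what could be called.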
